A study of Homo sapiens with 4 samples.

Results

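Metallothioneins are small cysteine-rich proteins that bind zinc and copper in the cytosol, and the gene count table of ZDHHC15-depleted HCC1954 cells was examined here for these genes and for the genes that sense and export zinc. The members were 8 of the 58735 genes of the table, found by their symbols: the metallothionein genes MT1E, MT1F, MT1G, MT1M, MT1X and MT2A of chromosome 16, MTF1 and SLC30A1. The cells were of HCC1954, an established line from a human breast tumour with amplified ERBB2. Cells carrying a scrambled control hairpin (shCON, n = 2) were compared with cells carrying a hairpin against the palmitoyltransferase gene ZDHHC15 (shZDHHC15, n = 2), both from lentiviral GIPZ vectors, in RPMI-1640 medium with fetal bovine serum. The labels call the knockdown stable in one field and describe a transient plasmid transfection with harvest after 36 h in another. They number the samples of each group 1 and 2 without saying whether these were separate cultures or separate hairpins, so p-values measure only the spread between these samples, which may be technical. RNA was measured in bulk, in which fewer cells of a type and less RNA per cell cannot be told apart.

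Free zinc in the cytosol is set by metallothioneins, which buffer it, by exporters of the ZnT family (SLC30 genes), which move it out of the cytosol, and by importers of the ZIP family (SLC39 genes), which bring it in. MTF1 encodes the zinc-finger transcription factor that senses a rise in zinc. It binds metal response elements in the promoters of metallothionein genes and of SLC30A1, which encodes the zinc exporter ZnT1 of the plasma membrane. Metallothionein genes are also known to respond to cadmium, copper, glucocorticoids and oxidative stress. ZDHHC15 transfers palmitate to cysteines of other proteins, and the study asked how its depletion alters the transcriptome of these cells.

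Total counts per library lay between 17560982 and 19118704, and between 23153 and 24773 genes were detected. ZDHHC15 received 17617 and 15716 counts in the shCON libraries and 0 counts in each shZDHHC15 library. The 9 epithelial and ERBB2-related markers of the line were all present, with ERBB2 between 92598 and 101910 counts. However, 7 of them were lower in shZDHHC15 cells, KRT8 by a log2 fold change of -1.62. KRT19 was higher (0.44) and CDH1 changed little (-0.05). Of the leukocyte markers, CD3E was at 0, PTPRC received between 1 and 4 counts and CD14 between 5 and 25, with CD14 higher in shZDHHC15 cells. The 6 fibroblast markers summed to between 106 and 215, with LUM at 0 and COL1A1 higher. The 4 endothelial markers summed to between 964 and 2000 counts, with CDH5 the largest in every library. PECAM1 rose from 75 and 56 counts in shCON cells to 666 and 405 in shZDHHC15 cells (log2 fold change 2.91). CDH5 was also higher in shZDHHC15 cells (0.65), while KDR was lower (-0.64). The part of these shifts in the results was not tested. Replicates differed by more than counting noise, with a chi-square statistic per degree of freedom of 8.32 between the shCON libraries and 6.79 between the shZDHHC15 libraries. In all, 6644 of 15817 tested genes, or 42.0%, had an adjusted p under 0.05 by edgeR's quasi-likelihood test, with 21.7% above the controls and 20.3% below them.

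The metallothionein genes are close copies of each other, which limits how surely a read can be placed. Their coding sequences, each of 183 bases without the stop codon, are shown here from the GENCODE release 29 transcripts, 5′ to 3′, because they show where the copies can be told apart. Capitals mark bases that differ from MT2A in the alignment. MT2P1, a processed pseudogene of MT2A on chromosome 4, was added to the comparison after its counts were seen.
MT2A: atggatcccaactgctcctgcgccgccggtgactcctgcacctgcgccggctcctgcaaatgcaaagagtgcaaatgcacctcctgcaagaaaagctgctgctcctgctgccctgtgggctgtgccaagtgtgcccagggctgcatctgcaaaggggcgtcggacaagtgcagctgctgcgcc
MT2P1: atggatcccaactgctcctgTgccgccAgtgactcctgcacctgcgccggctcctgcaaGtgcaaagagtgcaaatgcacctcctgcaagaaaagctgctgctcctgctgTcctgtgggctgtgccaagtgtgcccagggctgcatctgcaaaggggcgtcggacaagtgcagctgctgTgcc
MT1X: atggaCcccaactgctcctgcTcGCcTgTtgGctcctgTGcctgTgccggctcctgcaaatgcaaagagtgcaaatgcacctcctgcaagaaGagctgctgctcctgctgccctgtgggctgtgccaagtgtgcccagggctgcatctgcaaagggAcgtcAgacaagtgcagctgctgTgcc
MT1F: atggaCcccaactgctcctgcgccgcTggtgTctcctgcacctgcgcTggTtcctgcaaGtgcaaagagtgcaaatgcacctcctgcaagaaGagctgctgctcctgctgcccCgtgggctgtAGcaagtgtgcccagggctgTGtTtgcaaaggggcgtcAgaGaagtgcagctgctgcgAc
MT1G: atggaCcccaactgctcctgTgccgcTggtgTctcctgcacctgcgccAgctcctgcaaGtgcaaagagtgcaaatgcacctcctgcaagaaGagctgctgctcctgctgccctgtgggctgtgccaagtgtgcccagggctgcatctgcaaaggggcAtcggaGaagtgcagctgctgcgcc
MT1E: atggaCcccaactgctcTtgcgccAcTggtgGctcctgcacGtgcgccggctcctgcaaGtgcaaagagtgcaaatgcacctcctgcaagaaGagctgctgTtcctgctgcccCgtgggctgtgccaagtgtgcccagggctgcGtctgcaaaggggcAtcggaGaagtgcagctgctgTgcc
MT1M: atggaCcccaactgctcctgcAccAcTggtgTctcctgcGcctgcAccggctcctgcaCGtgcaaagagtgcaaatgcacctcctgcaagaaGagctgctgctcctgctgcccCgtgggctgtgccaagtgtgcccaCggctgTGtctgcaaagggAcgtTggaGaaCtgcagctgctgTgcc
Identity to MT2A over the 183 aligned bases was 95.1% for MT1G, 92.3% for both MT1E and MT1X, 91.3% for MT1F and 89.6% for MT1M. MT2P1 differed from MT2A at 5 bases and was 97.3% identical to it. Few capitals stand in the middle of the lines, so a short read from there can match several genes equally well.

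Read placement depends on whole transcripts rather than on coding sequence alone, so each principal transcript was divided into overlapping windows that were looked up in every annotated GENCODE transcript. Of windows of 50 bases, 4.88% of those of MT2A were also found in another gene, MT2P1 among them, and the share was 3.59% for MT1F, 5.34% for MT1E, 7.05% for MT1M and 20.2% for MT1G. MT1X had 45.1% of its windows in common with another gene, above all with AC026461.1, which overlaps its exons on the same strand. With windows of 100 bases the share was 0% for each metallothionein member except MT1X, where it was 19.1%. AC026461.1 received 0 counts in all 4 libraries. The read length and the treatment of reads with several placements are not given in the sources used here, so the values of MT1X and MT1G, which share most, are uncertain to that extent. MTF1 had 0.644% of its windows of 50 bases in another gene and SLC30A1 had 0%, and no annotated gene overlaps the exons of either.

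MT2A carried nearly all metallothionein reads in HCC1954 cells. MT2A (ENSG00000125148, chromosome 16, 56608199 to 56609497, plus strand, 3 exons in its principal transcript) received 22181 and 22647 counts in shCON cells and 20282 and 23697 counts in shZDHHC15 cells. These counts placed it 61st among all genes by mean normalized level. It held between 97.7% and 97.9% of the reads of the 18 listed metallothionein genes and pseudogenes in each library. That list leaves out MT2P1, which received 151 and 176 counts in shCON cells and 186 and 155 in shZDHHC15 cells. MT1X (ENSG00000187193, chromosome 16, 56682424 to 56684196, plus strand) received 227 and 321 counts in shCON cells and 273 and 315 in shZDHHC15 cells. MT1F (ENSG00000198417, chromosome 16, 56657694 to 56660698, plus strand) received 234 and 211 counts in shCON cells and 192 and 220 in shZDHHC15 cells. Both genes were far below MT2A in every library.

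The other metallothionein members were at or under the counting floor. MT1E (ENSG00000169715, chromosome 16, 56625475 to 56627112, plus strand) and MT1M (ENSG00000205364, chromosome 16, 56632233 to 56633986, plus strand) received 0 counts in all 4 libraries. MT1G (ENSG00000125144, chromosome 16, 56666731 to 56668065, minus strand) received 0 counts in each shCON library and 3 and 0 counts in the shZDHHC15 libraries. The upper limit that goes with 0 observed reads is 3 counts, or from 0.153 to 0.178 normalized counts (CPM, counts scaled to a common library size) depending on the library, and no fold change is given for these genes. Such limits cover counting error only. Against the floor of 3 counts per library, MT2A was at least 6055-fold higher than MT1E and at least 7131-fold higher than MT1M in each library, on a scale per kilobase of the principal transcript.

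Genes above and at the floor were interspersed along the cluster. Of the 16 metallothionein genes and pseudogenes of the family list on chromosome 16, spread from MT4, 43.1 kb before the start of MT2A, to MT1X, 74.2 kb after it, the 3 genes above the floor were MT2A, MT1F (49.5 kb) and MT1X. MT1E lies 17.3 kb and MT1M 24.03 kb after the start of MT2A, between MT2A and MT1F, and MT1G lies 58.5 kb after it, between MT1F and MT1X. MT3, the form best known from brain, and MT4, known from stratified epithelia, received 0 counts, as did MT1A, MT1B, MT1H, MT1L, MT1JP, MT1DP, MT1CP and MT1IP. Outside the cluster, MT1HL1 received 0 counts and the pseudogene MT1XP1 between 0 and 5.

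Levels of different genes are compared as CPM per kilobase of principal transcript (RPKM, with TMM-scaled library sizes). On this scale MT2A stood at 1628 ± 113 in shCON cells (SD, n = 2) and 1461 ± 106 in shZDHHC15 cells. The pseudogene MT2P1, which is not a member, stood at 51.1 ± 8.31 and 48.9 ± 8.09. Among the members MT1X followed with 35.0 ± 10.3 and 34.1 ± 2.18, and MT1F with 18.4 ± 0.335 and 15.6 ± 0.918. SLC30A1 stood at 7.15 ± 0.461 and 7.203 ± 0.251, and MTF1 at 4.32 ± 0.0914 and 5.04 ± 0.0211. No library of a higher gene in this order overlapped a library of the next gene. MT2P1 and MT1X came close, with a lowest value of 43.2 for MT2P1 (shZDHHC15 replicate 2) and a highest of 42.3 for MT1X (shCON replicate 2). The gap between these 2 genes was thus small beside their spread. The order of the middle genes rests on the length used. With the gene length deposited in the table, which for MT2A and MT1X equals the whole genomic span, MT1X gave 8.88 ± 2.62, SLC30A1 7.15 ± 0.461 and MT1F 6.71 ± 0.122 in shCON cells, and the values of MT1X and SLC30A1 overlapped there.

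**Figure D1:**
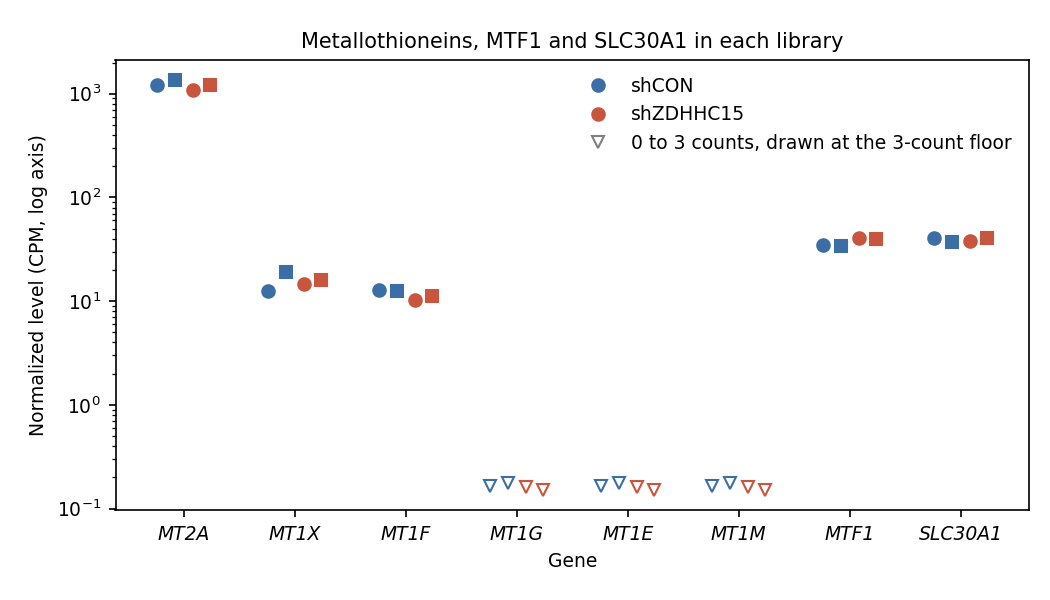
Normalized CPM (log axis) of the 8 genes in each library, with shCON in blue and shZDHHC15 in red, circles for replicate 1 and squares for replicate 2. MT1G, MT1E and MT1M are drawn as open triangles at the floor of 3 counts. For the other genes the 4 libraries lie close together on this axis, although MT1X ranged from 12.5 to 19.0 CPM.

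Comparing the groups, none of the members changed past the threshold when ZDHHC15 was depleted. Of the 8 members, 5 passed the filter on low counts, and 0 of these 5 had an adjusted p under 0.05 in either direction, against 42.0% of all genes tested. The count was also 0 at an unadjusted p under 0.05 and by the DESeq2 Wald test. The 3 genes left out by the filter were MT1E, MT1M and MT1G, which are at or under the floor in both groups. The normalized values of the groups did not overlap for 3 of the 5 (MT1F, MT2A and MTF1), while 72.5% of all tested genes showed no overlap. For 2 samples against 2 the smallest two-sided p of an exact permutation test is 0.333, and the p-values given here depend on edgeR's pooling of the spread over genes.

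MT2A had normalized levels of 1217 and 1343 CPM in shCON cells and of 1089 and 1207 CPM in shZDHHC15 cells. Both shZDHHC15 libraries lay below both shCON libraries, although the highest of the former came within 10 CPM of the lowest of the latter. The log2 fold change was -0.16 (standard error 0.0907, adjusted p = 0.185), with a 95% interval from -0.35 to 0.04, or 0.785-fold to 1.03-fold. Leaving out shCON replicate 1 gave -0.25 with an adjusted p of 0.0362, and over the other 11 alternatives for MT2A the adjusted p ranged from 0.0944 to 0.697. When all reads of the metallothionein family were summed into 1 feature, which does not depend on how reads are divided within the family, the sum was 1308 ± 93.3 CPM in shCON cells and 1175 ± 84.8 CPM in shZDHHC15 cells (SD, n = 2). Its log2 fold change was -0.16 (standard error 0.0909, adjusted p = 0.188), and without shCON replicate 1 it was -0.25 (adjusted p = 0.0357).

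MT1X was at 12.5 and 19.0 CPM in shCON cells and at 14.7 and 16.05 CPM in shZDHHC15 cells. The shZDHHC15 values lay between the shCON values, and the shCON libraries differed more from each other than the groups did. Its log2 fold change of -0.03 had a 95% interval from -0.41 to 0.35 (adjusted p = 0.915). Its direction turned with the shCON library left out, from -0.33 without replicate 1 to 0.30 without replicate 2. MT1F was at 12.8 and 12.5 CPM in shCON cells and at 10.3 and 11.2 CPM in shZDHHC15 cells. Both of its shZDHHC15 values were lower, by a log2 fold change of -0.24 that did not pass the test (95% interval -0.56 to 0.09, adjusted p = 0.241). MT2P1 had 151 and 176 counts in shCON cells and 186 and 155 in shZDHHC15 cells (log2 fold change -0.06, adjusted p = 0.814). It shared 15.7% of its windows of 50 bases with other genes, MT2A among them, and 0% of those of 100 bases. How well its reads separate from those of MT2A thus depends on the read length, which is not given.

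MTF1 (ENSG00000188786, chromosome 1, 37809567 to 37859620, minus strand, 11 exons), the zinc-sensing transcription factor, was at 34.9 and 33.9 CPM in shCON cells and at 40.3 and 40.0 CPM in shZDHHC15 cells. The replicates lay close together and the shZDHHC15 values were higher in both libraries. The log2 fold change was 0.22 (standard error 0.111, 95% interval -0.01 to 0.46), with an adjusted p of 0.122. With library size as the only scaling it was 0.30 with an adjusted p of 0.0463, and under the other 11 alternatives the adjusted p lay between 0.0893 and 0.344. SLC30A1 (ENSG00000170385, chromosome 1, 211571568 to 211578742, minus strand, 2 exons), the exporter gene that MTF1 is known to act on, was at 40.9 and 37.3 CPM in shCON cells and at 38.5 and 40.4 CPM in shZDHHC15 cells. Its groups overlapped, with a log2 fold change of 0.01 and a 95% interval from -0.23 to 0.25, or 0.853-fold to 1.19-fold (adjusted p = 0.953).

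**Figure D2:**
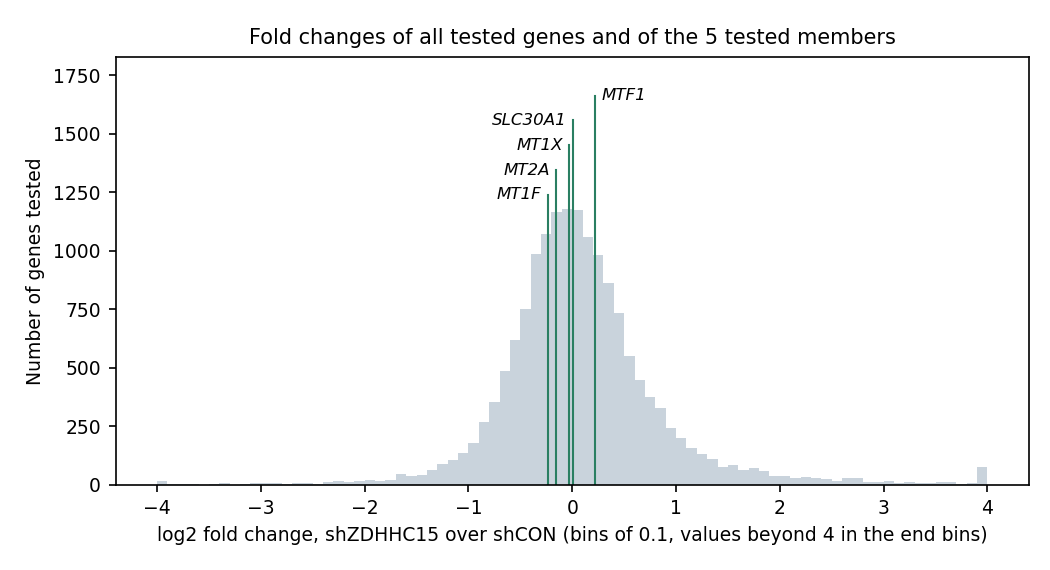
Number of tested genes in each bin of log2 fold change (shZDHHC15 over shCON), with the 5 tested members marked by lines whose height only separates the labels. All 5 lie between -0.24 and 0.22, near the middle of the distribution.

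In size, the members' differences were among the smaller ones in the table. The median absolute log2 fold change of all tested genes was 0.37, with 25% of genes under 0.17. SLC30A1 (0.01), MT1X (0.03) and MT2A (0.16) lay under this lower quartile, where 1.61%, 4.64% and 22.7% of tested genes had a smaller absolute change, and MTF1 (0.22) and MT1F (0.24) lay under the median. The median log2 fold change of the 5 members was -0.03 and that of all tested genes was 0.02.

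The genes whose pattern over the 4 libraries was most like that of MT2A were taken by the distance between log2 CPM values centred on each gene, over 6642 tested genes whose mean count was 500 or more. They were the pseudogene EIF1AXP1 (distance 0.0222), PLEKHG3 (0.0283), WDR4 (0.0289), THAP4 (0.0293) and DUS1L (0.0295). None of these 5 belongs to a zinc list used here, and their log2 fold changes lay between -0.18 and -0.15. A likeness over 4 libraries is a description only.

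Promoters of the family carry metal response elements, the short sites that MTF1 is known to bind. The core was searched as TGCACNC and TGCGCNC on both strands in the 250 bases before the RefSeq start site (GRCh38.p14), and overlapping matches were counted separately. Promoter sequences were matched for MT2A, MT1X, MTF1 and SLC30A1 among the members and for MT1B, MT1H and MT4 among the other family genes. Those of MT1X, which had reads in every library, and of MT1H, which received 0 counts, are shown as a contrast, 5′ to 3′ on the plus strand with the matches in capitals and only as far as the GENCODE gene start.
MT1X, chr16:56682220-56682423: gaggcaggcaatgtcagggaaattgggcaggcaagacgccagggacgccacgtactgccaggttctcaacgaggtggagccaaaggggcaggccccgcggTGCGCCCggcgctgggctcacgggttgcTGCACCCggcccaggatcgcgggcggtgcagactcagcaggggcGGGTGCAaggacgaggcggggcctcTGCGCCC
MT1H, chr16:56669564-56669813: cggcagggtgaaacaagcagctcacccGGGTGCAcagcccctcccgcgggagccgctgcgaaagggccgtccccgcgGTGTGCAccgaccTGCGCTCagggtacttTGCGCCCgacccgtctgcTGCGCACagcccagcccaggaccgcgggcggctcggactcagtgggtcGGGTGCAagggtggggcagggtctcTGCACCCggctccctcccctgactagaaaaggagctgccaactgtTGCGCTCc
MT2A held 7 matches, MT1X 4 and MT1H 8. MT1B and MT4, both at 0 counts, held 3 each, SLC30A1 held 1 and MTF1 held 0. Of 35116 promoters of this length, 24.8% held at least 1 match and 1.58% at least 3. MT1H, at 0 counts, thus held more matches than MT2A, and MT1B and MT4 held fewer than MT1X. A match is a description of letters and not of binding. The RefSeq start site lies 385 bases inside the GENCODE gene for MT2A and 46 bases inside for MT1X, and 419 bases before it for SLC30A1, so the windows depend on the annotation.

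Among the zinc exporters, only SLC30A5, which encodes the early secretory pathway transporter ZnT5, passed the test. All 10 SLC30 genes had at least 1 count in a library and 7 of them were tested. Of these 7, 1 was higher and 6 did not pass, while 42.0% of all tested genes passed. The median log2 fold change was 0.01 for the 7 exporters and 0.02 for all genes tested. SLC30A5 rose from 26.0 and 26.8 CPM to 33.2 and 32.8 CPM, a difference of 0.32 in log2 (adjusted p = 0.0379, standard error 0.117). The call was lost with upper-quartile factors (adjusted p = 0.0591), with DESeq2 (0.108), with no filter (0.0996) and with each of the 4 samples left out (0.108 and 0.0511 without shCON replicates 1 and 2, 0.171 and 0.132 without shZDHHC15 replicates 1 and 2). SLC30A7, which encodes the Golgi exporter ZnT7, had the next largest value (0.25, adjusted p = 0.119). It passed without shCON replicate 1 (0.40, adjusted p = 0.00906).

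Most of the tested ZIP importer genes changed, and in both directions. Of 14 SLC39 genes, 11 were tested, 3 were higher and 5 lower, against 21.7% and 20.3% of all genes tested, with a median log2 fold change of -0.40 against 0.02. SLC39A8, which encodes ZIP8, an importer of zinc and manganese, was at 24.96 and 24.2 CPM in shCON cells and at 64.1 and 53.1 CPM in shZDHHC15 cells. Both shZDHHC15 libraries were more than 2-fold above the controls, and the log2 fold change was 1.25 (standard error 0.123, adjusted p = 1.71e-06). SLC39A7, which encodes ZIP7 of the endoplasmic reticulum, rose by 0.43 (standard error 0.0899, adjusted p = 0.00155). SLC39A6 rose by 0.33 (adjusted p = 0.021), and this call was lost without shZDHHC15 replicate 1 (0.21, adjusted p = 0.298) and with no filter (0.31, adjusted p = 0.105).

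The genes that fell include transporters of the cell surface and of inner membranes. SLC39A13, which encodes ZIP13 of the secretory pathway, was at 50.9 and 58.8 CPM in shCON cells and at 24.5 and 30.5 CPM in shZDHHC15 cells, which is -0.995 in log2 (adjusted p = 2.63e-05, standard error 0.129). SLC39A4, which encodes ZIP4, the importer mutated in the zinc deficiency disease acrodermatitis enteropathica, was at 35.0 and 48.0 CPM and at 17.8 and 24.1 CPM, or -0.98 in log2 (adjusted p = 2.59e-04, standard error 0.164). SLC39A10, which encodes ZIP10 and is known to be repressed by MTF1, fell by 0.75 (standard error 0.12, adjusted p = 1.58e-04). SLC39A3 and SLC39A14 also fell, with log2 fold changes of -0.41 and -0.40 (adjusted p = 0.00805 and 0.0041). The groups of these 8 genes, which were picked by the test on the same libraries, did not overlap. Of all genes tested, 72.5% showed no overlap.

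**Figure D3:**
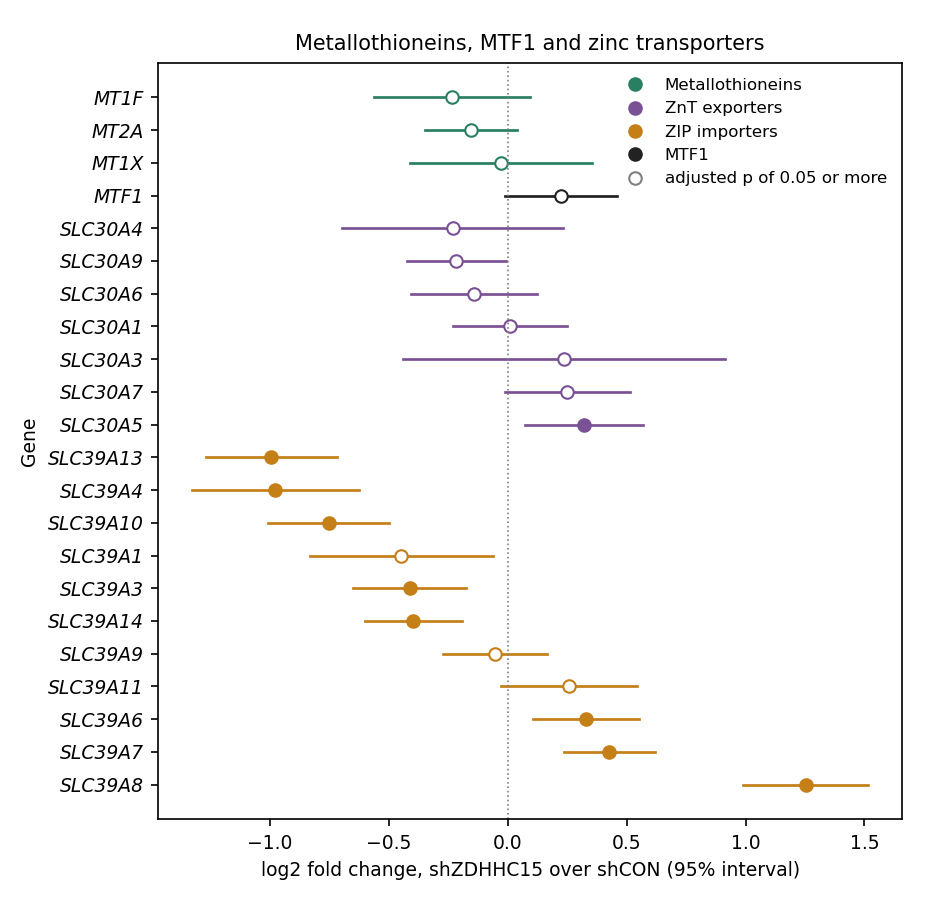
Log2 fold change (shZDHHC15 over shCON) with its 95% interval for the tested metallothioneins, MTF1, the ZnT exporters and the ZIP importers, with filled points for an adjusted p under 0.05. The metallothioneins, MTF1 and SLC30A1 have open points, and 8 of the 11 ZIP genes have filled points, from -0.995 for SLC39A13 to 1.25 for SLC39A8.

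Of 10 other genes described as MTF1 targets, a list that shares SLC39A10 and SLC30A10 with the transporter lists, 8 were tested. Of these, 1 was higher and 5 lower, against 21.7% and 20.3% of all genes tested, with a median log2 fold change of -0.45. SLC39A10, named above as repressed by MTF1, is 1 of the 5 lower. The counts and the median are therefore not a measure of MTF1 activity. GCLC, which encodes the catalytic subunit of the enzyme that starts glutathione synthesis, rose by 1.12 (standard error 0.103, adjusted p = 8.76e-07). CSRP1, which encodes a LIM-domain protein, fell by 1.45 (standard error 0.123, adjusted p = 3.81e-07). PGF, which encodes placental growth factor, fell by 1.33 from 20 and 22 to 7 and 11 counts (adjusted p = 0.032), a call lost with DESeq2 (adjusted p = 0.161), with no filter (0.0686), without shCON replicate 2 (0.0941) and without shZDHHC15 replicate 1 (0.165).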

How the data were processed

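The authors deposited 1 table of raw read counts per gene in 4 samples, with no normalization. The labels name the NEBNext Ultra RNA library kit and total RNA, and the submitters' processing notes list HISAT2, StringTie, SAMtools and hg38. The counting tool, read length and use of strand are not given in the sources used here. All 58735 gene identifiers had the same start, end and symbol in GENCODE release 29 (GRCh38). All 4 columns of counts were used.

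Counts were filtered with filterByExpr (15817 genes), scaled by TMM and tested with edgeR 4.0.16 (R 4.3.3; glmQLFit, glmQLFTest) with Benjamini-Hochberg adjustment over all genes tested. Standard errors were taken from the fold change and F statistic. The procedure was tested on simulated data. DESeq2 1.42.0 served as an alternative. Coding sequences were aligned with Biopython 1.88.

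The members, gene lists and tests were chosen with earlier results of these data known. Named were all members, family genes with counts, the 5 genes most like MT2A, and of each list up to 3 genes that rose most and 3 that fell most past the threshold, or, with fewer than 2 such genes, the next largest. SLC39A3, SLC39A14, MT2P1 and the markers named by their change were named after their values were seen. The deviations of equally numbered samples from their group means correlated at 0.0344 over genes, so the numbers were not taken as pairs. A leukocyte marker is not reported here.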

Additional observations from a re-analysis of the deposited data

How the results depend on the processing

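Scaling was changed to library size only, to upper-quartile factors or to the size factors of DESeq2, and the filter to none or to a minimum of 10 counts per sample. The DESeq2 Wald test, edgeR's legacy quasi-dispersion and a replicate block were also used, and each sample was left out in turn, where the lone sample is assumed to vary like the other group. Sums of metallothionein reads over other sets of genes were also tried, 1 of them with pseudogenes added after seeing the data. Of 421 alternative log2 fold changes, 395 kept their direction and their side of the threshold, and of 216 alternative gene counts, 199 were within 1.5 times the reported count. With library size only, 3926 genes were higher and 2545 lower, beside 3427 and 3217 as reported. The cause of the changes was not tested.

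The count of members higher was 1 with library size only (MTF1), and with a sample left out the members lower and the metallothionein genes lower were each 0 to 1 and the summed family had log2 fold changes from -0.25 to -0.0833. MT1X was 0.0474 with library size only and -0.33 to 0.30 with a sample left out. SLC30A1 was -0.0018 with DESeq2 size factors, -0.0202 with upper-quartile factors, -0.0016 with DESeq2, -0.0075 with no filter and -0.0575 to 0.0566 with a sample left out. With no filter, 2282 genes were higher, as were 0 zinc exporters and 5 heavy metal stress genes, and 3 MTF1 targets were lower. Zinc exporters higher were 0 with upper-quartile factors and with DESeq2, and 0 to 1 with a sample left out. With a sample left out, MTF1 targets lower were 3 to 5 and stress genes higher 5 to 9. With the replicate block, 1 zinc exporter was lower, as in 0 to 1 with a sample left out, and the block gave -0.16 for the summed family (adjusted p = 0.0955). The block called 3723 genes higher and 3502 lower in all, and left the members at 0 higher and 0 lower. Members at the floor are limited by depth, and differences between expressed members by 2 samples per group.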

Other observations

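Other lists linked to metallothionein induction or to copper, the other metal that metallothioneins hold, held many genes past the threshold, beside 42.0% of all genes tested. Of 17 copper handling genes, 16 were tested, with 5 higher, 5 lower and a median log2 fold change of -0.18. CP, which encodes the copper oxidase ceruloplasmin, rose from 16.1 ± 2.22 to 157 ± 53.6 CPM (SD, n = 2), which is 3.28 on the log2 scale (edgeR adjusted p = 7.2e-09). The copper exporter gene ATP7A and the metalloreductase gene STEAP4 rose by 1.28 and 0.70, and ATOX1, COMMD1 and CCS fell, with log2 fold changes of -0.85, -0.75 and -0.58.

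Of 13 stress genes known to be induced by heavy metals, 8 were higher and 2 lower, with a median of 0.34. The cystine transporter gene SLC7A11, the glutathione synthesis gene GCLM and HSPA1B rose by 1.41, 1.14 and 0.94, where HSPA1B is near-identical to HSPA1A. HSPA6 and ATF3 fell, with log2 fold changes of -2.25 and -1.69. Of 13 glucocorticoid-responsive genes, 11 were tested, with 3 higher, 5 lower and a median of -0.13. KLF9, CEBPD and FKBP5 rose by 1.89, 0.73 and 0.65, and ANGPTL4, DUSP1 and ERRFI1 fell, with log2 fold changes of -1.24, -1.21 and -1.10.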
